A study of Homo sapiens with 12 samples.

Results

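BOLA3, SVIP, COMMD6, C12orf75 and BLOC1S2 are 5 human genes for short proteins. In HEK293 cells their coding footprints made up a larger share of the monosome pool than of the polysome pool. The genes were chosen by their high monosome over polysome ratio of coding footprints in these libraries, so that ratio is described below and not tested. Levels were scaled to each library's own total, and the amount of ribosomes in each pool was not analysed. The ratio therefore compares a gene's share of each pool, not the number of its ribosomes there. The genes are 5 of the 6375 genes with a coding open reading frame (ORF) in the deposited ORF table, and all 5 were among the 4769 genes that passed the filter on low counts.

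HEK293 is an established line of human embryonic kidney origin. Ribosome-protected fragments were sequenced from a monosome pool and a polysome pool of 3 conditions: 1 h of amino acid starvation, in a salt solution with vitamins and serum, 2 h of serum starvation, and log-phase growth. Each of the 6 groups had 2 libraries, called A and B as in the table, and every lysate contained cycloheximide. Nothing in the labels says that the libraries of a group came from separate cultures, so p-values measure only the spread between these libraries. Of the genes expected in this line, VIM, NEFM and NEFL passed the filter and PAX2, LHX1 and CDH2 did not, while 0 of 7 markers of other cell types passed. Coding footprints per library were between 119951 and 346211 in monosomes and between 1493925 and 5313704 in polysomes.

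A monosome is a single ribosome on an mRNA, and a polysome is an mRNA that carries several. A short coding sequence has room for few ribosomes and is read through quickly. BOLA3 acts in mitochondria, where it helps to pass iron-sulfur clusters to their target proteins. SVIP is a small membrane-anchored protein that binds the ATPase VCP and inhibits degradation of proteins from the endoplasmic reticulum. COMMD6 is the shortest COMMD protein, a family whose members build the Commander complex of endosomal recycling. BLOC1S2 is a subunit shared by BLOC-1, which acts in the making of lysosome-related organelles, and BORC, which positions lysosomes. C12orf75 carries a name given for its position, and no role is stated for it here.

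Amino acid starvation acts on mRNAs that begin with a 5′ terminal oligopyrimidine motif through mTOR, so the bases around the annotated transcription starts are shown for the 3 genes whose RefSeq start lies upstream of every ORF called in the gene. The windows are from RefSeq on GRCh38.p14, read 5′ to 3′ on the gene's strand, with the 15 bases from the start on in capitals.
BOLA3, chr2:74147898-74147927, minus strand: ccgcgtctttcgggcATACAGTGACCTCGG
COMMD6, chr13:75549425-75549454, minus strand: cacccgcaccttcccATTCTTGCAGTGTCA
C12orf75, chr12:105330676-105330705, plus strand: cgaggggtgccgggtGGTTTCCGCCCGGCA
None of the 3 starts with C followed by 4 pyrimidines, a pattern that 4.54% of 22199 protein-coding RefSeq starts hold on the gene's own strand. These are annotated starts, and the start used in HEK293 cells was not measured. The windows of BOLA3 and COMMD6 do hold C followed by 4 pyrimidines upstream of the annotated start. How often other windows do was not counted. SVIP and BLOC1S2 were left out because their listed start lies inside an ORF called in the gene.

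The ORF that stands for each gene differed widely in length and in how much of the protein it covers. BLOC1S2 (ENSG00000196072) was the only one of the 5 with a complete annotated coding sequence, 429 nt from an ATG, at chr10:100275462-100286659 on the minus strand. BOLA3 (ENSG00000163170) was read from a truncated ORF of 279 nt that the caller began at an ATC, at chr2:74135593-74147829 on the minus strand. COMMD6 (ENSG00000188243) had a truncated ORF of 225 nt at chr13:75526589-75537772 on the minus strand, out of a candidate of 234 nt. C12orf75 (ENSG00000235162) had a truncated ORF of 93 nt at chr12:105365835-105367476 on the plus strand, which was its only row in the table. SVIP (ENSG00000198168) was represented by 18 nt, or 6 codons, of a candidate of 192 nt, at chr11:22823119-22827209 on the minus strand. The SVIP value therefore counts footprints on the last codons of the candidate and says nothing of the rest of it. Spans include introns and are on hg38, the build named in the submitters' processing notes.

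The calls themselves were not equally firm. The caller's p-values in the authors' deposited table were 0.000977 for SVIP, 0.00149 for BLOC1S2, 0.0241 for BOLA3, 0.0412 for COMMD6 and 0.294 for C12orf75. Only BLOC1S2 began at ATG, and the other called starts were ATC, AAG and AGG. A second coding ORF shared codons with the kept one and was left out in BOLA3 (261 nt), COMMD6 (207 nt) and BLOC1S2 (363 nt). RefSeq lists 4 pseudogenes of BOLA3, 1 of COMMD6 and 1 of BLOC1S2 by symbol, and how footprints that align to several places were counted is not given in the sources used here.

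Levels are given in CPM, coding footprints scaled to a common library total with edgeR's TMM factors, with library A before library B. They compare 1 gene between libraries and are not per length. BLOC1S2 had 894 and 298 in monosomes under amino acid starvation, 718 and 393 under serum starvation, and 1475 and 909 in log phase. In polysomes BLOC1S2 had 14.4 and 6.04 under amino acid starvation, 19.4 and 10.5 under serum starvation, and 24.9 and 15.4 in log phase. Every monosome library was above every polysome library, and both log-phase monosome libraries were above the starved ones.

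COMMD6 had 357 and 330 CPM in monosomes under amino acid starvation, 736 and 426 under serum starvation, and 1378 and 832 in log phase. In polysomes it had 19.2 and 15.4 under amino acid starvation, 44.4 and 10.3 under serum starvation, and 32.8 and 9.94 in log phase. The 3 monosome groups of COMMD6 did not overlap, with log phase highest and amino acid starvation lowest, whereas its 3 polysome groups overlapped one another. BOLA3 had 370 and 238 in monosomes under amino acid starvation, 922 and 265 under serum starvation, and 956 and 682 in log phase. In polysomes BOLA3 had 9.62 and 5.37 under amino acid starvation, 18.8 and 5.39 under serum starvation, and 15.9 and 7.23 in log phase. The serum-starved monosome libraries of BOLA3 overlapped both other groups, and only the amino acid starved pair lay below log phase without overlap.

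SVIP and C12orf75 rested on fewer footprints. SVIP had 86.3 and 105 CPM in monosomes under amino acid starvation, 151 and 116 under serum starvation, and 278 and 137 in log phase. In polysomes SVIP had 1.20 and 3.69 under amino acid starvation, 0.648 and 2.05 under serum starvation, and 3.73 and 2.71 in log phase. Its 6 polysome libraries held 44 footprints in all, against 220 in the monosome libraries. C12orf75 had 30.8 and 68.7 in monosomes under amino acid starvation, 79.8 and 77.4 under serum starvation, and 267 and 112 in log phase. In polysomes C12orf75 had 1.20 and 0.671 under amino acid starvation, 0 (an expected count of 0.2, rounded) and 0.513 under serum starvation, and 1.24 and 0.903 in log phase. These polysome values come from 13 footprints over 6 libraries, 2 of them under serum starvation. No size is therefore read from its change in polysomes or from the change of its ratio, also where values of them appear below. SVIP and C12orf75 passed the filter on low counts only through their monosome libraries.

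**Figure D1:**
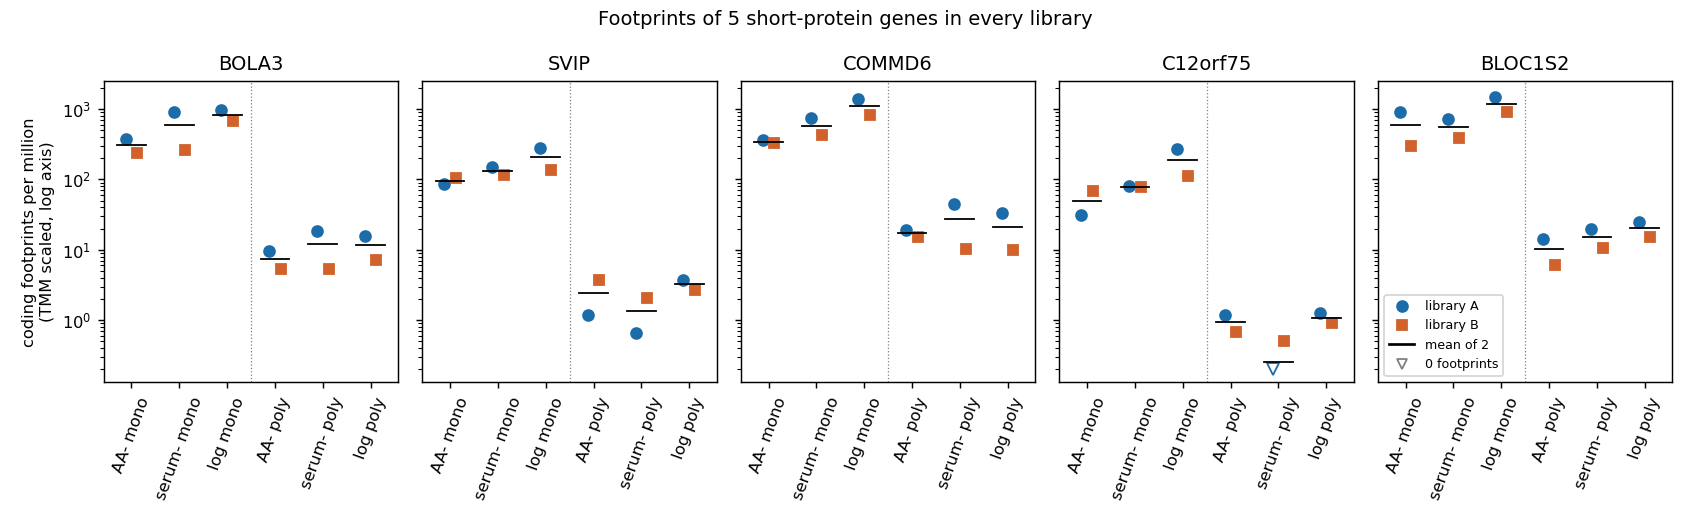
Coding footprints in CPM (TMM scaled, log axis) of the 5 genes in each of the 12 libraries, with library A as circles, library B as squares and the mean of 2 as a line. AA- is amino acid starvation, serum- serum starvation, log is log phase, mono and poly are the pools; the open triangle marks a library with 0 footprints after rounding, drawn at the bottom, and in every gene all monosome libraries sit above all polysome libraries.

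Pooled over the 3 conditions, C12orf75 had 170 monosome footprints and 13 polysome footprints, a ratio of the levels of 159 (95% exact interval 90.4 to 304). SVIP had a ratio of 60.7 (43.7 to 85.9), BOLA3 of 52.1 (44.4 to 61.3), BLOC1S2 of 51.0 (44.7 to 58.4) and COMMD6 of 30.9 (27.6 to 34.8). These intervals cover counting error only, since PCR reads without molecular identifiers are not independent molecules. By counting error alone the order of the middle genes is not separated, while COMMD6 lay below the other 4 and C12orf75 above. The spread between libraries is not in these intervals. In amino acid starvation alone the pooled ratio was 61.0 for both C12orf75 and BLOC1S2, so no firm order of the genes is read from the pooled values.

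On the log2 scale of the edgeR fit the monosome over polysome ratio was 6.94 for C12orf75, 5.86 for SVIP, 5.69 for BOLA3, 5.65 for BLOC1S2 and 4.79 for COMMD6, against a median of -0.17 over the 4769 tested genes. They ranked 2, 7, 11, 12 and 28 among these genes. In all 5 the 6 monosome libraries lay above the 6 polysome libraries, as did those of 9.67% of tested genes, and this count follows from the choice of the genes. The ratios stood within each letter of each condition too: they were between 5.07 and 5.84 for BLOC1S2, between 5.09 and 6.33 for BOLA3, between 4.43 and 6.33 for SVIP, between 4.01 and 6.22 for COMMD6 and between 3.71 and 6.75 for C12orf75. These 6 values per gene are on log2 CPM with a prior count of 2, which pulls the lowest counts together.

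Called ORF length and ratio did not go together for all genes with a short called ORF. Of 910 tested genes with a coding ORF under 300 nt, 42 had a log2 ratio above 4, and the median of the 910 was 0.65. BOLA3, COMMD6, SVIP and C12orf75 were in this class, at ranks 10, 21, 6 and 2 within it. BLOC1S2 belonged to the 1286 genes of the next length class, from 300 to under 600 nt, whose median was -0.28, and it had the highest ratio of them. The ORF lengths are the caller's and can cover only part of a coding sequence, as with 12 nt for MAP1B and 99 nt for TOP2A. The class under 300 nt is therefore not a class of short proteins, and its median is not read as an effect of protein length. For SVIP too the called ORF is much shorter than the candidate.

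**Figure D2:**
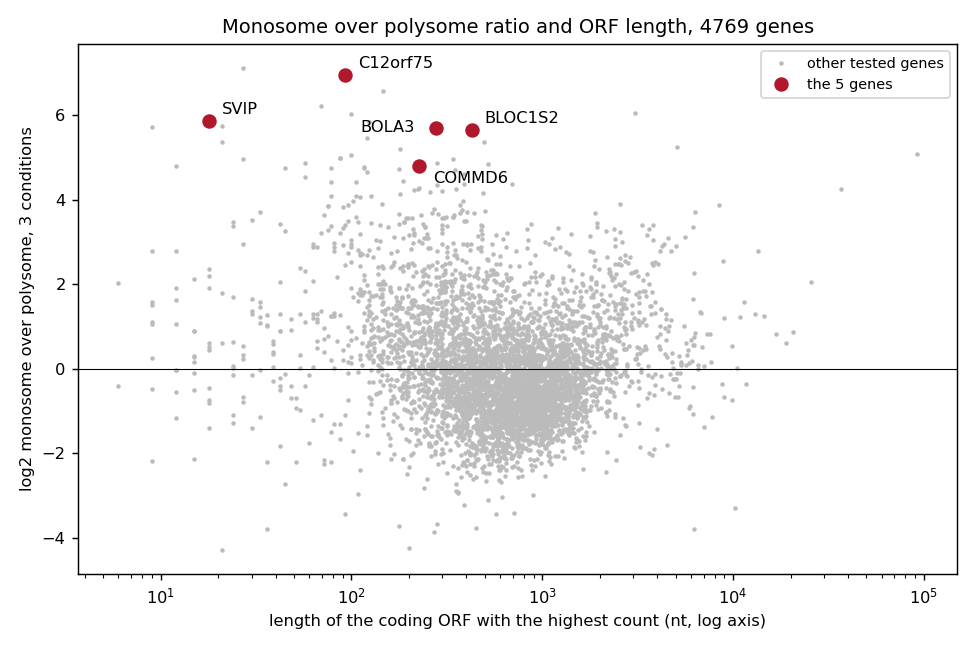
Log2 monosome over polysome ratio over the 3 conditions against the length of the gene's coding ORF with the highest count (nt, log axis) for the 4769 tested genes, with the 5 genes in red. The 5 lie between 4.79 and 6.94 and between 18 and 429 nt; the grey points are the other tested genes.

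The changes in starvation were tested, on the same monosome libraries that enter the ratio by which the genes were chosen. In monosomes under amino acid starvation all 5 genes were lower than in log phase, and both starved libraries lay below both log-phase libraries in 5 of 5, as in 22.4% of tested genes. The log2 difference was -1.89 ± 0.64 for C12orf75, -1.68 ± 0.70 for COMMD6, -1.43 ± 0.69 for BOLA3, -1.10 ± 0.58 for SVIP and -1.01 ± 0.64 for BLOC1S2 (fitted value ± SE, n = 2 libraries per group). The median of the 5 was -1.43, against -0.01 over all tested genes. Within libraries A the differences were between -3.06 and -0.72, and within libraries B between -1.61 and -0.37, so that none of the 10 was above 0.

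None of the 5 differences passed the test, an adjusted p-value under 0.05. With edgeR's quasi-likelihood test 0 of 5 were called, as were 0.0% of tested genes, and the lowest adjusted p-value was 0.956. With the library letter as a block, edgeR called 0 of 5 and 1.01% of tested genes, with adjusted p-values between 0.0741 for COMMD6 and 0.373 for SVIP. At an unadjusted p under 0.05, edgeR had 2 of 5 without the block, against 4.97% of tested genes, and 5 of 5 with it, against 10.8%. DESeq2 called 26 genes and none of the 5. In bulk libraries, fewer cells that express a gene, less of its mRNA per cell and fewer ribosomes per mRNA cannot be told apart, and mRNA levels were not analysed here. Each level is a share of its pool, so a change in what else the pool held cannot be told apart from these either.

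The lower monosome level under amino acid starvation was shared by other genes with a high ratio. Of the 51 further tested genes with a log2 ratio above 4, 40 were below 0 and their median was -1.12. This class was set after the values were seen. It is cut on a ratio that holds the same monosome libraries, so these values are a description only. Among the 910 genes with an ORF under 300 nt the median was -0.20. The test of a difference between the 5 genes and these classes was not made, and nothing here is particular to the 5.

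In serum-starved monosomes the same genes also had fitted values below log phase, with less distance between the libraries. The log2 difference was -1.27 ± 0.62 for C12orf75, -1.11 ± 0.64 for BLOC1S2, -0.94 ± 0.68 for COMMD6, -0.65 ± 0.57 for SVIP and -0.48 ± 0.68 for BOLA3 (fitted value ± SE, n = 2 libraries per group). COMMD6, BLOC1S2 and C12orf75, 3 of 5, lay below log phase without overlap, as did 17.8% of tested genes. edgeR called 0 of 5, as it did 0.0% of tested genes, with the lowest adjusted p-value at 1.00, and 0 of 5 with the letter block, against 0.021% of tested genes, with a lowest adjusted p-value of 0.782. At an unadjusted p under 0.05, edgeR had 0 of 5 without the block and 3 of 5 with it, against 1.76% and 5.72% of tested genes, and DESeq2 called 0 genes. Without serum-starved monosome library B, BOLA3 stood at 0.15 and the median of the 5 at -0.61, and without library A the median was -1.40.

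**Figure D3:**
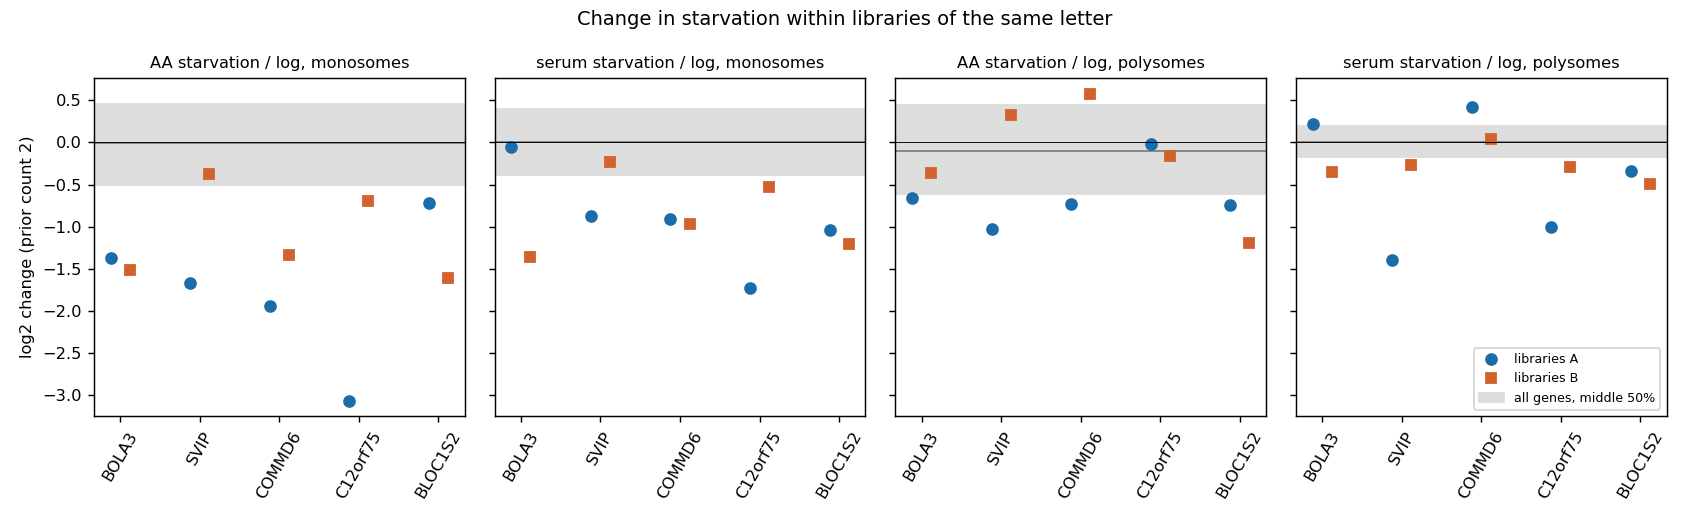
Log2 change of the 5 genes in starvation against log phase, within libraries A (circles) and within libraries B (squares), for amino acid (AA) and serum starvation in monosomes and polysomes; the grey band and line are the middle 50% and the median of the fitted changes of all 4769 tested genes. In monosomes under amino acid starvation all 10 points lie between -3.06 and -0.37, while the polysome points lie on both sides of 0. No size is read from the polysome points of C12orf75, which rest on 13 footprints.

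Serum-starved monosome library A stood apart from the other monosome libraries in the reading frame of its footprints. Footprints of the internal and overlapping out-of-frame ORFs made up 41.1% of coding plus out-of-frame footprints over all genes but the 5 in that library, against 17.7% to 27.2% in the other 5 monosome libraries. In the same library the share was 76.2% for BLOC1S2, 65.6% for COMMD6, 61.7% for SVIP and 56.0% for BOLA3, whereas C12orf75 had no out-of-frame ORF in the table. In the other monosome libraries it was between 17.7% and 32.2% for BLOC1S2, 12.7% and 31.3% for COMMD6, 7.17% and 39.1% for SVIP, and 15.8% and 32.2% for BOLA3. In polysomes the share was 38.9% to 90.6% for SVIP, 24.9% to 36.3% for BOLA3, 19.2% to 31.9% for BLOC1S2 and 9.94% to 19.9% for COMMD6. Over all genes but the 5 the polysome share was 13.2% to 19.8%. For SVIP the out-of-frame ORFs, of 156 and 138 nt, lie almost wholly upstream of the kept coding ORF of 18 nt. The SVIP share therefore compares different stretches of the mRNA and is not a measure of reading frame. The coding ratio of SVIP leaves its out-of-frame footprints out. When out-of-frame ORFs were counted with the coding ones, the median log2 difference of the 5 in serum-starved monosomes was -0.38 in place of -0.94, and in amino acid starved monosomes -1.55 in place of -1.43. The part of the frame in these results was not tested beyond that.

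A single ORF carried much of this in BLOC1S2. An out-of-frame ORF of 99 nt that starts at ATG, at chr10:100286112-100286210, held 606.2 footprints in all libraries against 1441 for the coding ORF. In serum-starved monosome library A it held 229.6 against 81.1 for the coding ORF, and in log-phase monosome library A 112.7 against 408.8. In none of the other 11 libraries did the out-of-frame ORF exceed the coding one.

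**Figure D4:**
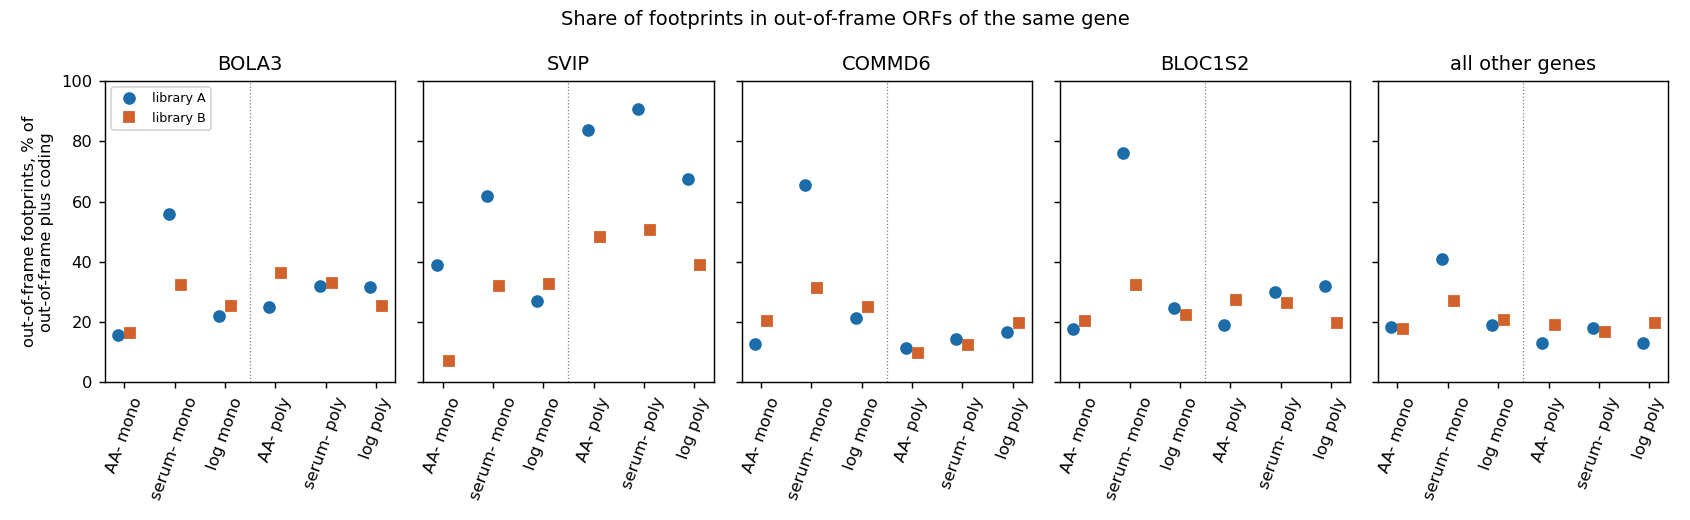
Share of out-of-frame footprints among out-of-frame plus coding footprints (percent) in each library for BOLA3, SVIP, COMMD6, BLOC1S2 and all genes but the 5; circles are libraries A, squares libraries B, and AA-, serum-, log, mono and poly are as in the plot of levels. Serum-starved monosome library A is the highest monosome library in each panel, between 41.1% for the other genes and 76.2% for BLOC1S2. The polysome libraries of SVIP lie between 38.9% and 90.6%. In SVIP the kept coding ORF is 18 nt, and the share is not a measure of reading frame.

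In polysomes none of the 5 genes passed the test, and the direction for SVIP and COMMD6 under amino acid starvation turned with the scaling. Under amino acid starvation the fitted log2 differences were -1.01 for BLOC1S2, -0.67 for BOLA3, -0.33 for COMMD6 and -0.31 for SVIP, against a median of -0.10 over all tested genes. With scaling by library size alone, which moved the median of all genes by 0.32, SVIP and COMMD6 stood at 0.05 and 0.11. BLOC1S2 alone lay below log phase without overlap, 1 of 5, as did 17.7% of tested genes. edgeR called 0 of 5 and 0.0% of tested genes, with the lowest adjusted p-value at 0.647. With the letter block it called 0 of 5 and 10.1% of tested genes, with a lowest adjusted p-value of 0.118 for BLOC1S2. At an unadjusted p under 0.05, edgeR had 0 of 5 without the block, against 8.68% of tested genes, and 1 of 5 with it, against 27.0%, and DESeq2 called 76 genes and none of the 5.

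Under serum starvation the polysome differences were 0.33 ± 0.68 for COMMD6, -0.44 ± 0.65 for BLOC1S2 and -1.19 ± 0.69 for SVIP on the log2 scale (fitted value ± SE, n = 2 libraries per group), and BOLA3 stood at 0.03. SVIP and C12orf75, 2 of 5, lay below log phase without overlap, as did 3.56% of tested genes, on 10 and 2 footprints in the starved pair, so this count supports no change. Leaving out 1 library moved BLOC1S2 to between -0.87, without serum-starved polysome library A, and -0.09, without library B, and SVIP to between -0.59 and -2.22 without the same libraries. Without log-phase polysome library A, BLOC1S2 also stood at -0.09. edgeR called 0 of 5 and 0.0% of tested genes with and without the block, and at an unadjusted p under 0.05 it had 0 of 5 with and without it, against 1.01% and 0.105%. DESeq2 called 0 genes.

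Whether the pools moved apart was tested as the difference between the starved and the log-phase ratio. These are the ratios by which the genes were chosen. SVIP and C12orf75 also passed the filter on low counts only through their monosome libraries. The values and counts of the 5 are therefore a description, and nothing is concluded from them. In amino acid starvation the fitted log2 change was -1.36 for COMMD6, -0.79 for SVIP, -0.76 for BOLA3 and 0.01 for BLOC1S2, against a median of 0.03 over all tested genes. In serum starvation it was -1.27 for COMMD6, -0.68 for BLOC1S2, -0.51 for BOLA3 and 0.54 for SVIP. The median of the 5 in serum starvation was -0.51, but it was 0.23 with out-of-frame ORFs counted and 0.14 without serum-starved monosome library B, and -1.17 without library A, so no shared direction is given. The SVIP values rest on 10 to 21 polysome footprints per condition. The medians of the 5 include C12orf75, which had 2 polysome footprints in serum starvation. edgeR called 0 of 5 and 0.0% of tested genes in both. With the letter block edgeR called 0 of 5 in both, against 1.17% of tested genes in amino acid starvation and 0.021% in serum starvation. The lowest adjusted p-value of the 5 with the block was 0.3005 in amino acid starvation and 1.00 in serum starvation. At an unadjusted p under 0.05 COMMD6 alone, 1 of 5, passed in amino acid starvation with the block, against 13.5% of tested genes, and 0 of 5 without it, against 4.11%. In serum starvation 0 of 5 passed in either fit, against 2.41% of tested genes with the block and 0.692% without it. These contrasts share their log-phase libraries with the ones above.

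Upstream ORFs by the caller's type, here counting those typed as overlapping the coding start, were called in 2 of the 5 genes. They were called in 56.3% of the 6375 genes with a coding ORF, a share from which nothing is read for 5 genes. No ORF typed as wholly upstream of the coding start was called in any of the 5. ORFs typed as overlapping the coding start were called in SVIP and BLOC1S2, 1 each. Both began at CTG, and the caller's p-values in the authors' deposited table were 0.320 for the 138 nt ORF of SVIP and 0.991 for the 63 nt ORF of BLOC1S2. The BLOC1S2 ORF was typed on another transcript than the kept coding ORF. On the minus strand it begins at chr10:100286149, downstream of the kept coding start at chr10:100286659. By position it is therefore internal to the kept coding ORF and not upstream of it. The SVIP ORF lies at chr11:22827299-22829759 on the minus strand, and the kept coding ORF begins at chr11:22827209. By position the SVIP ORF is therefore wholly upstream of the kept coding ORF and does not overlap it.

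In SVIP the ORF typed as overlapping took 19.8% of its own plus the coding footprints in monosomes (exact 95% interval 15.2 to 25.01). In polysomes it took 50.6% (39.8 to 61.3). In BLOC1S2 the ORF so typed, internal to the kept coding ORF, took 4.98% in monosomes (3.83 to 6.35) and 4.81% in polysomes (2.65 to 7.94). The intervals do not overlap in SVIP, where the coding value rests on 6 codons, and overlap in BLOC1S2. Each share holds the coding footprints by whose ratio the genes were chosen. No difference between the pools is therefore read from the shares. The ORF of this type in BLOC1S2 had its own monosome over polysome ratio of 52.9 (29.2 to 102), next to 51.0 for its coding ORF. In SVIP the ratio of the ORF so typed was 14.6 (9.63 to 22.1), next to 60.7 for the kept coding ORF. The intervals cover counting error only, and the shares were pooled over libraries with no test over them.

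The partners of these proteins did not share the pattern throughout. Among 13 tested genes of iron-sulfur cluster assembly other than BOLA3, edgeR called 5 higher in monosomes than in polysomes over the 3 conditions and 0 lower, against 17.1% and 21.7% of tested genes. With the letter block it called 7 higher and 1 lower, against 24.1% and 30.1%. BOLA2B, a cytosolic relative of BOLA3, was at 4.75 on the log2 scale, but a near-identical copy, BOLA2, makes its count uncertain. GLRX5, the monothiol glutaredoxin that carries clusters, was at 3.60, and ISCU, the scaffold on which clusters are built, at 3.40. ISCA1, an assembly factor for larger clusters, was at 3.43, on a called ORF of 42 nt. LYRM4, a partner of the cysteine desulfurase, was at 1.93.

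Among 16 tested genes of VCP function and endoplasmic reticulum degradation other than SVIP, 1 was higher and 4 were lower. UBXN6, a VCP cofactor, was at 0.84, and NSFL1C, DERL1, UBE2G2 and UBXN1 were at -1.45, -1.43, -1.34 and -1.32. Of 10 tested COMMD and Commander genes other than COMMD6, 2 were higher and 3 lower: COMMD2 stood at 2.68 and COMMD7 at 1.85, and COMMD1, COMMD4 and VPS26C at -1.56, -1.40 and -0.86. Of 7 tested BLOC-1 and BORC genes other than BLOC1S2, 2 were higher and 0 lower, SNAPIN at 2.21 and BLOC1S1, a subunit shared by both complexes, at 1.34. With the letter block, 4 were higher and 5 lower in the VCP list, and 2 and 5 in the Commander list. In the BLOC-1 and BORC list 3 were higher and 0 lower with the block.

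In starvation edgeR called 0 partners in any of the 4 lists without the letter block. With the block, in amino acid starved polysomes, the mitochondrial chaperone HSPA9 was called higher at 1.62 and the membrane-bound VCP cofactor UBXN4 higher at 1.23, and the BLOC-1 and BORC subunits SNAPIN and BORCS7 were called lower at -1.85 and -1.69, against 5.1% of tested genes higher and 4.99% lower. The adjusted p-values of these 4 without the block were between 0.488 and 0.572 in edgeR. No partner was called in monosomes in either fit.

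The genes with the most similar profiles over the 12 libraries also lay above 0 in the monosome over polysome ratio. Likeness was measured as Pearson's r of log2 CPM over 12 libraries, all of which share the contrast of the pools, so r is a description. BOLA3 was closest to GTF3A, BOLA2B and LOC102723553, at 0.997, 0.997 and 0.996. COMMD6 was closest to GTF3A at 0.996, then SLC25A39 and TFDP1 at 0.992. BLOC1S2 was closest to MIEN1 at 0.996, CHRAC1 at 0.993 and SIVA1 at 0.991. SVIP was closest to C12orf75 at 0.988, then CISD3 and AKAP12 at 0.981. C12orf75 was closest to CISD3 at 0.993, SVIP at 0.988 and DUS1L at 0.982. The log2 monosome over polysome ratios of these genes, the 5 aside, were between 2.18 for TFDP1 and 4.75 for BOLA2B.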

How the data were processed

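The authors deposited 1 table of 149028 ORFs with the expected count of footprints in each of 12 libraries and a caller p-value per ORF. Its column names give pool, condition and the letter A or B, and the labels do not link these letters to replicates 1 and 2. Fragments of 17 to 34 nt were purified, per the labels' protocols, and the submitters' processing notes name Bowtie 1.0 and hg38, with no role. The ORF layout is that of the table itself.

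Each codon was counted once, leaving 124896 ORFs, and coding ORFs (7032, types CDS, Trunc and Variant) were summed per gene and rounded. The rule for naming genes and for ties between ORF types was revised once after member rows had been seen, which left the coding set as it was. Of 6375 genes, 5893 were named by position inside 1 RefSeq protein-coding gene, 220 lay in several and 262 in none. edgeR 4.0.16 in R 4.3.3 was used with filterByExpr (minimum count 10, total 15), TMM and the quasi-likelihood test over 12 libraries and 6 groups, with Benjamini-Hochberg adjustment over 4769 genes and a threshold of 0.05. The common biological coefficient of variation was 0.432. An SE is the size of the fitted change over the square root of F, which fails near 0, where none is given. Ratio intervals are exact (Clopper-Pearson, 95%). The fit was tested on simulated data.

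Same-letter libraries deviated together from their group means, with r between 0.160 and 0.866 over the pairs of groups, so values with the letter as a block stand beside the results. DESeq2 1.42.0, other scalings, other ORF sets and each library left out were the alternatives, and coding plus out-of-frame ORFs was added after the data were seen. Genes named are the 5, partners that passed the test, and the 3 most similar genes of each. The members, the partner lists and the tests were chosen with earlier results of these data known. RefSeq start windows were the only sequences used here.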

Additional observations from a re-analysis of the deposited data

How the results depend on the processing

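With 2 libraries per group and few polysome footprints, changes of these genes are known only to within their SE, and the called ORF limits SVIP to 6 codons. In amino acid starved monosomes every gene stayed below 0 in each of the 20 alternatives that gave it a value, between -2.62 and -0.43; complete annotated coding sequences alone gave one for BLOC1S2 only. None of the 5 was called in any starvation contrast under any alternative, where the lowest adjusted p-value was 0.0741, with the letter as replicate block. The replicate block changed no call of the 5, but over all genes edgeR then called 481 in amino acid starved polysomes, 48 in amino acid starved monosomes, 1 in serum-starved monosomes, and 56 and 1 for the ratio in amino acid and serum starvation, against 0 in each without it. DESeq2 called 76, 26 and 26 for amino acid starvation in polysomes, in monosomes and in the ratio. Leaving out 1 library gave 0 to 26 calls in amino acid starved polysomes, 26 without serum-starved polysome library A or B and 3 without log-phase polysome library B. The cause of each was not tested, and leaving out a library changes the number of genes that pass the filter.

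In amino acid starved polysomes, library size scaling turned SVIP to 0.053, COMMD6 to 0.11 and C12orf75 to 0.061. Leaving out 1 library gave -1.08 to 0.015 for BOLA3, -0.90 to 0.79 for COMMD6, -1.35 to 0.25 for SVIP and -0.58 to 0.15 for C12orf75. No size is read from the C12orf75 values, which rest on 4 polysome footprints in amino acid starvation. In serum-starved polysomes BOLA3 was at -0.029 with the replicate block, and leaving out 1 library gave -1.04 to 0.66 for BOLA3, -0.99 to 1.37 for COMMD6, -0.87 to -0.09 for BLOC1S2 and -2.22 to -0.59 for SVIP. In serum-starved monosomes it gave -1.65 to 0.15 for BOLA3. The ratio change of BLOC1S2 in amino acid starvation was -0.094 with the replicate block, -0.15 with DESeq2, -0.15 with RLE, -0.40 with library size, -0.00083 with no filter, -0.24 with complete annotated coding sequences alone and -0.024 with overlapping ORFs kept; in serum starvation it was 0.30 with out-of-frame ORFs counted. Leaving out 1 library gave ratio changes of -0.995 to 0.60 for BLOC1S2 and -1.39 to 0.21 for SVIP in amino acid starvation. In serum starvation it gave -0.34 to 2.46 for C12orf75, from which no size is read on 2 polysome footprints, -1.66 to 0.53 for BOLA3, -0.076 to 1.57 for SVIP and -2.33 to 0.034 for COMMD6.

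The median log2 monosome over polysome ratio of the 5 in log phase was 5.92 with the block, 6.21 with DESeq2, 6.17 with RLE, 6.12 with library size, 5.74 with no filter, 6.02 with overlapping ORFs kept and 5.69 with out-of-frame ORFs counted, against 5.94. In serum starvation it was 5.86 with DESeq2 and 5.85 with RLE, against 5.60. In amino acid starvation it was 5.43 with DESeq2, 5.41 with RLE, 5.14 with library size, 5.15 with no filter and 5.00 with out-of-frame ORFs counted, against 5.35. Leaving out 1 library gave 5.40 to 6.79 in log phase, 4.65 to 6.21 in serum starvation and 4.88 to 5.82 in amino acid starvation. An upstream ORF comparison at a caller p-value under 0.05 gave no value, since neither ORF typed as overlapping reached it.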
